A study of Mus musculus with 4 samples.

Results

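Histone genes were followed in cultured mouse osteoblasts, the cells that form bone, on Affymetrix arrays that read each transcript through 1 or more probe sets. Probe sets were taken by the gene symbols of the platform annotation, and a probe set counted as a histone only when every symbol it names is a core or linker histone. This gave 53 of 45101 probe sets, which name 74 histone symbols. They were 32 probe sets of the replication-dependent genes in the histone clusters and 21 of replacement variants. Of the 53, 17 name several histones, and which of the named genes each of these reads cannot be told from the array.

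Each of the 4 groups has 1 array: an untreated control, called 0 h, and insulin at 10 nM with exposures of 6, 12 and 24 h. By the growth protocol every group, the control included, lacks the IGF-1 receptor, although the genotype entry names IGF-1 null for all of them. The cells were grown to confluence and deprived of serum before insulin, and the labels do not say whether the osteoblasts came from 1 clone or several animals. There is no replicate, so no test, p-value or error of a difference is given, and later untreated cultures were not analysed here. Time in culture and insulin cannot be told apart.

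Histones package DNA into nucleosomes, with H2A, H2B, H3 and H4 as the core and H1 as the linker. The replication-dependent genes lie in clusters, lack introns and are transcribed mainly while DNA is copied. Their messages usually end in a stem-loop in place of a poly(A) tail. Many replacement variants, such as H2A.Z, are encoded by single genes with polyadenylated messages and are made through the whole cell cycle, but this does not hold for every variant listed here. The labels state that the first cDNA strand was primed with an oligo(dT) primer, which anneals to poly(A), so signals of cluster genes come from whatever part of their messages such a primer reaches. That part was not measured here.

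The 0 h array stood apart from the insulin arrays in several ways that touch every difference below. Xist, which coats the silenced X, had intensities of 109, 1636, 1278 and 1463 at 0, 6, 12 and 24 h, and the Y-linked gene Eif2s3y had 12.2, 295, 305 and 326. The osteoblast markers with a probe set of their own, 4 of 7 (Sp7, Alpl, Col1a1 and Ibsp), summed to 14126.5 at 0 h and to between 30498 and 38254 on the insulin arrays. Col1a1 alone had 13802 at 0 h, and 1 other Col1a1 probe set above the filter went the other way on the mean of the insulin arrays. The remaining 3 markers were at least 2-fold higher at all times. The 5 macrophage markers, of which 4 were 2-fold higher on the insulin arrays and Cd14 lower, had a sum of 863 at 0 h and of 4834 to 6742 later. The 3 adipocyte markers summed to 909.98 at 0 h and 2497 to 5170.2 later, although Pparg had 223 at 0 h and 107, 184 and 196 later, whereas skeletal muscle and endothelial lists had 1 of 3 markers each above the filter and sums of 129 to 187 on all arrays. The part of these shifts in the histone results was not tested.

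Across the histones the cluster probe sets were mostly higher on the insulin arrays and those of replacement variants mostly lower or close to 0 h. A brightness filter kept probe sets whose mean over the 4 arrays reached 65.3, the mean of the array medians, which left 22854 probe sets of all kinds and 34 of the 53 histone probe sets. Differences are log2 intensity of an insulin array minus that of the 0 h array. The 24 cluster probe sets above the filter had median differences of 0.81, 0.79 and 0.70 at 6, 12 and 24 h, the 10 variant probe sets had medians of -0.16, -0.24 and -0.26, and all 22854 probe sets had medians of -0.03, -0.03 and -0.04. The distance between the medians of cluster and variant probe sets was therefore 0.97, 1.03 and 0.97. Under other processing or another choice of members it ran from 0.66 to 1.498 at 6 h, from 0.70 to 1.67 at 12 h and from 0.68 to 1.61 at 24 h. The 1.498 came from leaving out the variant genes H2ax and H2aj. The 10 variant probe sets are of 7 genes, and 4 of the 10 are of the H2A.Z genes. With the brightest probe set for each symbol entry the variant medians were -0.061, -0.082 and -0.14. The cluster medians were then 0.61, 0.66 and 0.55. Because each difference shares the same 0 h array, the 3 times are not independent.

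At least 2-fold higher were 9, 10 and 10 of the 24 cluster probe sets at 6, 12 and 24 h, and 0 of the 10 variant probe sets at each time. Among all probe sets above the filter 9.46%, 10.2% and 9.95% were that much higher. At least 2-fold lower was 1 cluster probe set and 1 variant probe set at each time, against 5.39%, 6.55% and 6.02% of all probe sets. The filter takes the mean over all arrays, so 3 of these cluster probe sets, those of H3c4, H3c7 and 1 of H4, passed it through the insulin arrays where they are high, whereas H2bc18, high at 0 h alone, did not pass. With the 0 h array required to reach the filter value too, 6, 7 and 7 of 21 cluster probe sets were 2-fold higher and 1 lower at each time, against 5.78%, 6.44% and 6.12% of all probe sets higher and 5.74%, 6.98% and 6.41% lower, and the cluster medians were 0.71, 0.66 and 0.61. With the highest array alone required to reach it, 9, 10 and 10 of 25 were higher and 2 lower at each time, against 9.23%, 10.1% and 9.81% higher and 6.02%, 7.21% and 6.65% lower. Both settings were chosen after the values were seen. At all 3 times together 9 cluster probe sets were 2-fold higher (8.63% of all probe sets), and 1 cluster and 1 variant probe set 2-fold lower (4.43%). By any amount, 20 of 24 cluster probe sets were higher than 0 h at all 3 times and 2 lower, while 3 of 10 variant probe sets were higher and 7 lower. The corresponding shares of all probe sets were 40.6% higher and 45.5% lower. Of the 7 lower variant probe sets, 4 are of the H2A.Z genes. In RNA from a whole culture, a different number of cells that carry a message and a different amount per cell cannot be told apart. The counts lean on shared probe sets: with only the 12 cluster probe sets that name 1 symbol, 3, 4 and 4 were 2-fold higher and none lower, and their medians were 0.61, 0.62 and 0.54. At other thresholds, 17%, 18% and 17.5% of all probe sets were 1.5-fold higher and 13.8%, 15.6% and 15.1% lower, and 5.14%, 5.73% and 5.53% were 3-fold higher and 1.77%, 2.17% and 1.94% lower.

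**Figure D1:**
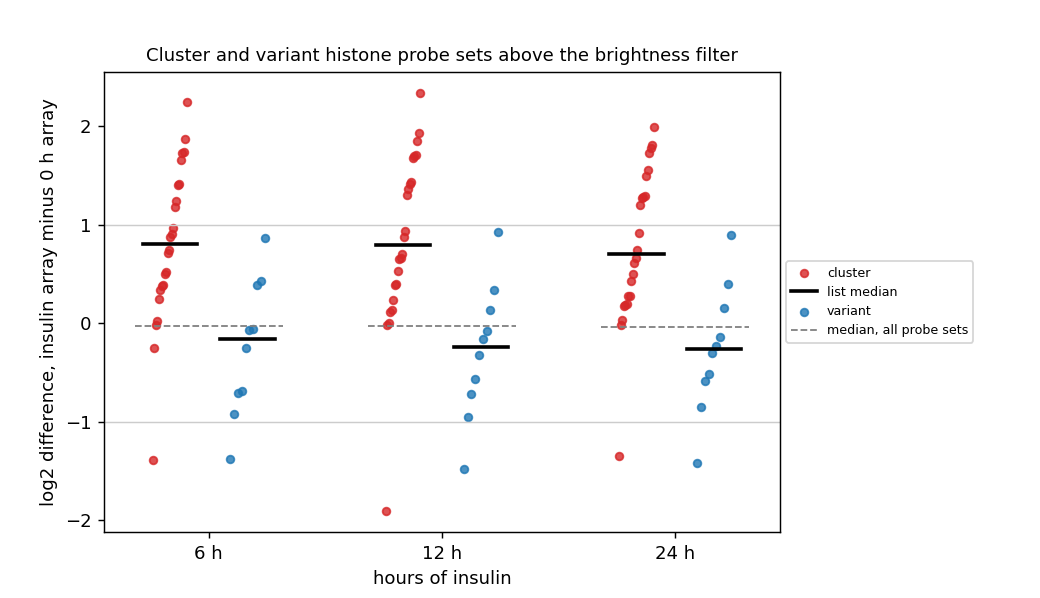
Log2 difference of each histone probe set above the brightness filter from the 0 h array at 6, 12 and 24 h of insulin, for cluster (red) and variant (blue) genes. Black bars are list medians, the dashed line is the median of all probe sets and grey lines mark 2-fold. Cluster medians lie at 0.81, 0.79 and 0.70 and variant medians at -0.16, -0.24 and -0.26, with 1 cluster probe set far below the rest.

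Promoters of 4 members are given here to show the sequence of both kinds of gene, as the 250 bases before the annotated start of transcription in the RefSeq annotation of GRCm38.p6. H1f2 and H3c4 have probe sets of their own that were higher on the insulin arrays, H2bc8 is 1 of 3 genes read by an H2B probe set that was higher, and the variant gene H2az1 was lower. Capitals mark 3 motifs on either strand: the octamer ATTTGCAT, known from H2B promoters as a site of POU factors, the CCAAT box and the TATA box TATAAA. The motifs share no letters with one another in these windows. The coordinates are chr13:23571150-23571399 for H2bc8, chr13:23738557-23738806 for H1f2, chr13:23575513-23575762 for H3c4 and chr3:137864237-137864486 for H2az1, all on the + strand.
H2bc8: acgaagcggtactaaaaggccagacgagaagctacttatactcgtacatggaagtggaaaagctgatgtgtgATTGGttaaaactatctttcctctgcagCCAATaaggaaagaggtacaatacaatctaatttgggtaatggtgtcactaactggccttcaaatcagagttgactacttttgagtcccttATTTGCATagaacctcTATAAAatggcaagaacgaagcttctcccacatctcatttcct
H1f2: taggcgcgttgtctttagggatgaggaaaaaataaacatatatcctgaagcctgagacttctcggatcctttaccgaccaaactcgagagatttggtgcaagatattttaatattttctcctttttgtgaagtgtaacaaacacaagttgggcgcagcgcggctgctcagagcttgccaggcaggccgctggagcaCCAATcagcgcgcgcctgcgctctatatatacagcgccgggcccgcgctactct
H3c4: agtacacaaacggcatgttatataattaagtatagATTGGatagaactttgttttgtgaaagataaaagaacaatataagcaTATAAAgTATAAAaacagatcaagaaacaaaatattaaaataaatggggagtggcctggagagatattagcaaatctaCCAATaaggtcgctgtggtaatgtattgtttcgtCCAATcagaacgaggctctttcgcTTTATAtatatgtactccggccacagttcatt
H2az1: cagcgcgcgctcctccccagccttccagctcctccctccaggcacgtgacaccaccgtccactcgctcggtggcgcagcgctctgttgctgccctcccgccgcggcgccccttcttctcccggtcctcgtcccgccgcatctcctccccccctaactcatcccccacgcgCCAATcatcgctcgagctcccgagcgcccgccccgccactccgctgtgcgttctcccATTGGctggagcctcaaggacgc

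A promoter was found for 67 of the 74 histone symbols, 68 promoters in all, and the same motifs were counted in them and in all 32851 promoters of the table. The octamer stood in 8 of 44 cluster promoters (18.2%), namely 3 of 6 for H2B and 5 of 13 for H2A and none of the 3 for H1, the 10 for H3 or the 12 for H4, in 1 of 24 variant promoters and in 1.6% of all promoters. A CCAAT box stood in 33 of 44 cluster promoters (75%), in 9 of 24 variant promoters (37.5%) and in 33.8% of all. Most of the 24 variant promoters belong to germ cell genes, and of the 6 others 5 held a CCAAT box (83.3%) and 1 the octamer (16.7%). TATAAA stood in 18 of 44 cluster promoters (40.9%), in 2 of 24 variant promoters (8.33%) and in 12.4% of all. A match describes the sequence and is not a measured binding site.

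Among linker histones of the clusters, H1f2 was higher on the insulin arrays. H1f2, which encodes the somatic linker histone H1.2, had intensities of 3412, 7717, 8743 and 8322 at 0, 6, 12 and 24 h by its brightest probe set (1416101_a_at). A second probe set (1436994_a_at) had 1704, 3325, 4202 and 4125. Every insulin array was above the 0 h array in both, by 2.26, 2.56 and 2.44-fold and by 1.95, 2.47 and 2.42-fold. A dim H1f2 probe set (1438204_at) had 94.1, 122, 102 and 108, and was higher by at most 1.30-fold. The other linker probe sets of the clusters, 2 in number, had intensities between 13.7 and 60.9 and were under the filter.

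Among probe sets above the filter, those of cluster H2A were the family with none 2-fold higher. H2ac19, of the cluster on chromosome 3, had 1895, 2395, 2471 and 2299.98 by its brightest probe set, with folds of 1.26, 1.30 and 1.21, and 1107, 1453, 1459 and 1345 by another. H2aw, of the small cluster on chromosome 11, had 549, 901, 895 and 870.3, and its dimmer probe set had 115, 215, 219 and 215. On each of these 4 probe sets the insulin arrays were above 0 h, by 1.21 to 1.91-fold. A further probe set, outside the symbol rule because it also names Trim17, went the other way for H2aw, with 680.3, 619.6, 591 and 516. The H2A probe set under the filter names H2ac19 and H2ac18 and had 30.0, 49.7, 57.9 and 63.1. It was more than 2-fold higher at 24 h alone, but every value is under the filter value, so the size of the fold is not given. It is named here after its values were seen.

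One H2A probe set went the other way. It names 10 H2A genes of the chromosome 13 cluster (1438009_at) and had 6182, 2370.4, 1648 and 2429, which is 2.61, 3.75 and 2.54-fold lower than at 0 h. It was the brightest of the cluster H2A probe sets at 0 h, and its 12 h value was below both other insulin arrays. Among its 10 genes, H2ac8 and H2ac22 face an H2B gene across a shared upstream region. Only the 6 promoters of H2B genes under the symbol rule were searched. Whether the other H2A genes face an H2B gene outside the rule was not looked at. The 250-base windows of H2ac8 and H2bc8 overlap by 179 bases and those of H2ac22 and H2bc22 by 239. The probe set that reads H2bc8 was higher on the insulin arrays and so was that of H2bc22, so probe sets assigned to facing genes differed in direction. Which of the 10 genes gives the H2A signal cannot be read from this array.

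In cluster H2B, the bright probe set with H2bc8 and that of H2bc22 were higher on the insulin arrays, H2bc21 was mixed and H2bc18 lower. The probe set shared by H2bc8, H2bc6 and H2bc4 (1418072_at) had 2582, 8544, 9319.5 and 8868, all insulin arrays far above 0 h, by 3.31, 3.61 and 3.43-fold. A second probe set for the same 3 genes had 67.9, 114, 125 and 113. H2bc22 had 114, 162, 165 and 153, and H2bc21, in the chromosome 3 cluster, had 86.7, 72.9, 95.1 and 98.3 with the 6 h array below 0 h and the others above it. H2bc18, a gene of the same chromosome 3 cluster, had 141, 23.3, 23.7 and 23.2 (1425868_at). It was under the filter on average, since it exceeded the filter value at 0 h alone. On every insulin array H2bc18 was more than 2-fold lower, the largest decrease among the cluster probe sets. Its values there are so far under the filter value that the size of the fold is not given.

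Of the cluster probe sets 2-fold higher at all 3 times, 3 were of H3 and 4 of H4, and among these 7 the H3c4, H3c7 and 1 of the H4 probe sets had been under the filter value at 0 h. For H3, a probe set that names 8 genes (1422155_at) had 221, 736, 846 and 733, or 3.32, 3.82 and 3.31-fold higher, and a second one with the same 8 names had 593, 848, 936 and 839. H3c4 had 47.5, 174, 154 and 166, and H3c7 42.6, 100.5, 115 and 103. Both single-gene probe sets were under the filter value at 0 h and above it afterwards, so their folds depend on a dim value. A probe set for 12 H3 genes (1460314_s_at) had 475, 869, 747 and 724. In contrast, the probe set for H3c10 and H3c2 stayed between 113 and 118 and another with 12 names between 117 and 118, while H3c11 had 82.8, 98.5, 97.3 and 93.3.

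All 5 H4 probe sets name the same 13 genes and cannot be counted as separate genes. Which of the 13 genes each probe set reads cannot be told from this array. The brightest (1422948_s_at) had 631, 1666, 1680.5 and 1451, which is 2.64, 2.66 and 2.30-fold higher than at 0 h. The 3 others above the filter had 145, 385, 462 and 407, then 78.8, 249, 257 and 231, and last 37.5, 178, 189.6 and 149. On all 4 the insulin arrays were at least 2-fold above 0 h and the 12 h array was the highest. The fifth (1431658_at), under the filter, had 52.9, 27.2, 22.3 and 23.1 and so went the other way, more than 2-fold lower at 12 and 24 h. The H4 medians over the 4 were 1.54, 1.69 and 1.52, the largest among the 5 cluster families at each time.

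**Figure D2:**
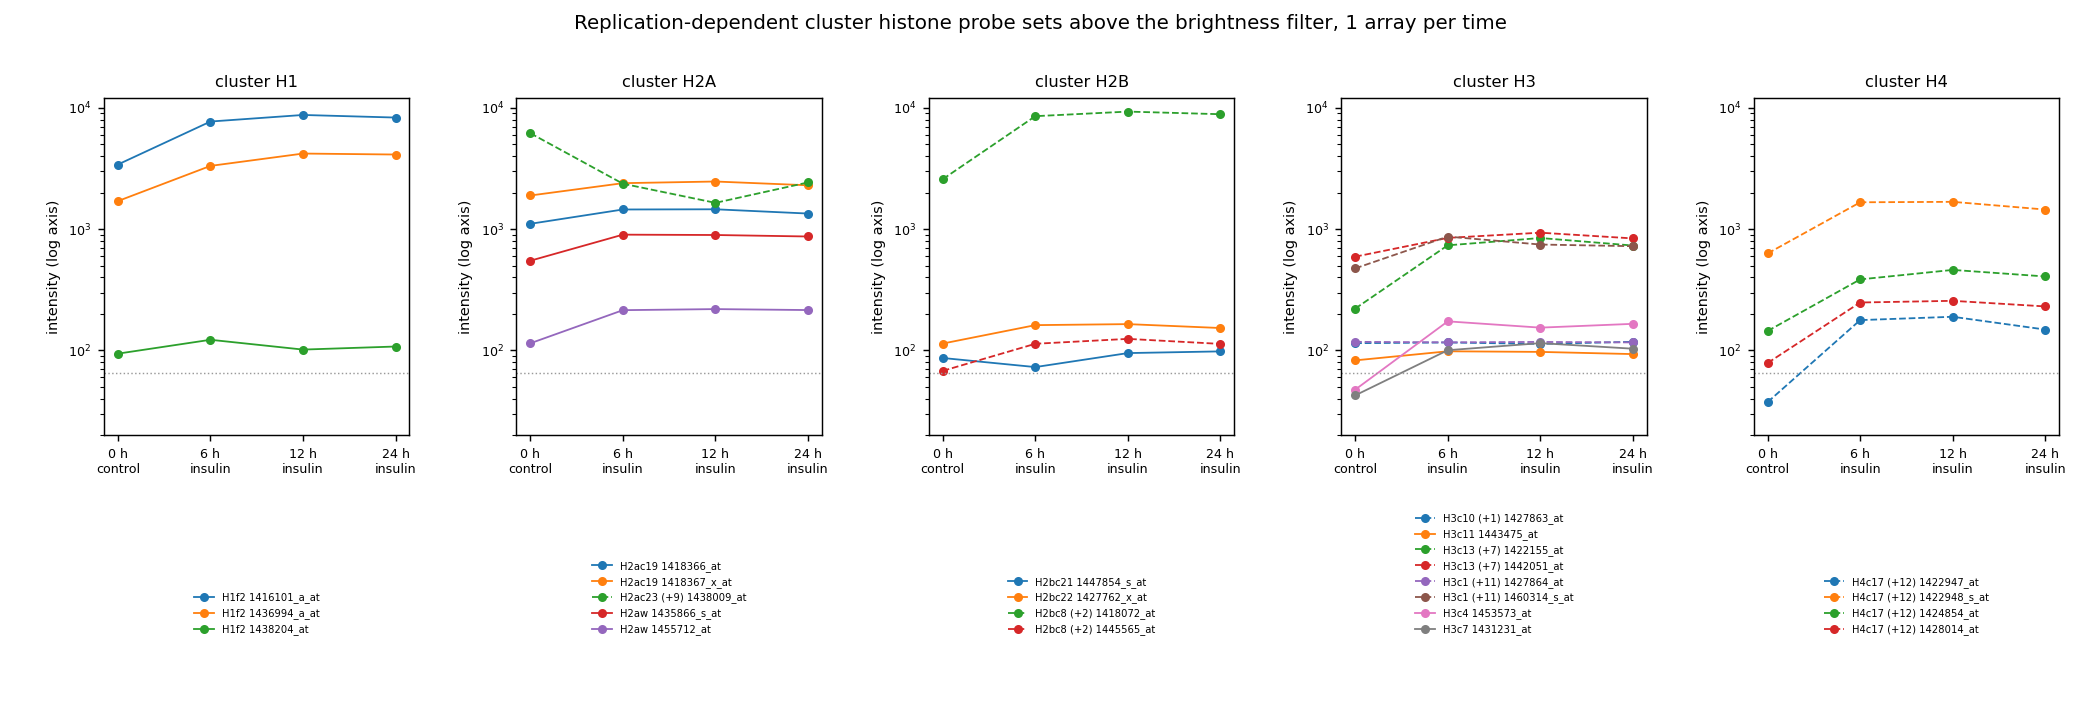
Intensity on a log axis of each cluster histone probe set above the brightness filter on the 4 arrays, by family, with arrays as equally spaced categories. Solid lines name 1 gene and dashed lines several, with the number of further genes in brackets, and the dotted line is the filter value of 65.3. H1f2 goes from 3412 to between 7717 and 8743 and the H2bc8 probe set from 2582 to between 8544 and 9319.5, while the dashed H2A line goes from 6182 to between 1648 and 2429.

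Among the replacement variants, both H2A.Z genes were lower on the insulin arrays. H2az1, whose protein marks promoters and other regulatory regions, had 5177, 1996, 1859 and 1945 (1438091_a_at) and 3875, 2049.7, 1999.9 and 2154 (1438092_x_at). The insulin arrays were below 0 h by 2.59, 2.78 and 2.66-fold on the first and by 1.89, 1.94 and 1.80-fold on the second. H2az2, the gene of the closely related second H2A.Z, had 2815, 1726, 1717 and 1882, and its other probe set had 253, 156, 171 and 176. These were 1.63, 1.64 and 1.496-fold and 1.61, 1.48 and 1.43-fold lower. The 4 probe sets thus shared 1 direction at all times, and H2az1 differed more from 0 h than H2az2. A pair of probe sets that name H2az1 with the pseudogene Gm8203 fell outside the symbol rule, and had 14459, 7367, 5914 and 6398, and 2019, 943, 1032 and 1079.98.

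The other H2A variants leaned the other way on their brightest probe sets. H2aj, which encodes a variant close to canonical H2A, had 2197, 3998, 4181 and 4081, or 1.82, 1.90 and 1.86-fold higher. Its second probe set above the filter had 152, 145, 136 and 124, slightly below 0 h, so the probe sets of this gene disagree. H2ax, whose protein is phosphorylated at DNA breaks, had 1084, 1418, 1188 and 1204, with 6 h the highest array and 1.31, 1.10 and 1.11-fold above 0 h. Without H2ax and H2aj the variant medians were -0.69, -0.57 and -0.52. Since the brightest probe sets of these genes were higher than 0 h, leaving them out lowers the median by construction. The linker variant gene H1f10 had 171, 231, 217 and 226, all insulin arrays above 0 h by 1.26 to 1.35-fold.

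The H3.3 genes were close to 0 h. H3f3a and H3f3b both encode the H3 variant that is laid down outside replication, and their probe sets with 1 symbol were dim. H3f3a had 139, 117, 111 and 126, and H3f3b had 110.5, 106, 104 and 94.2, in each case with the insulin arrays below 0 h by no more than 1.25-fold. The bright H3f3 signal is in 5 probe sets that also name H3f3c and 3 genes known only as Gm symbols, outside the symbol rule. Their intensities lay between 4537 and 10658 on all arrays, and their log2 differences from 0 h between -0.50 and 0.03. With these, the H2az1 pairs and the H2B probe sets that carry the symbol H4bc24 added, the distance between cluster and variant medians was 1.12 at 6 h and 1.203 at 12 h. That addition was chosen after the values were seen, as was that of the H2aw probe set with Trim17, with which the distances were 1.06, 1.12 and 1.0002.

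**Figure D3:**
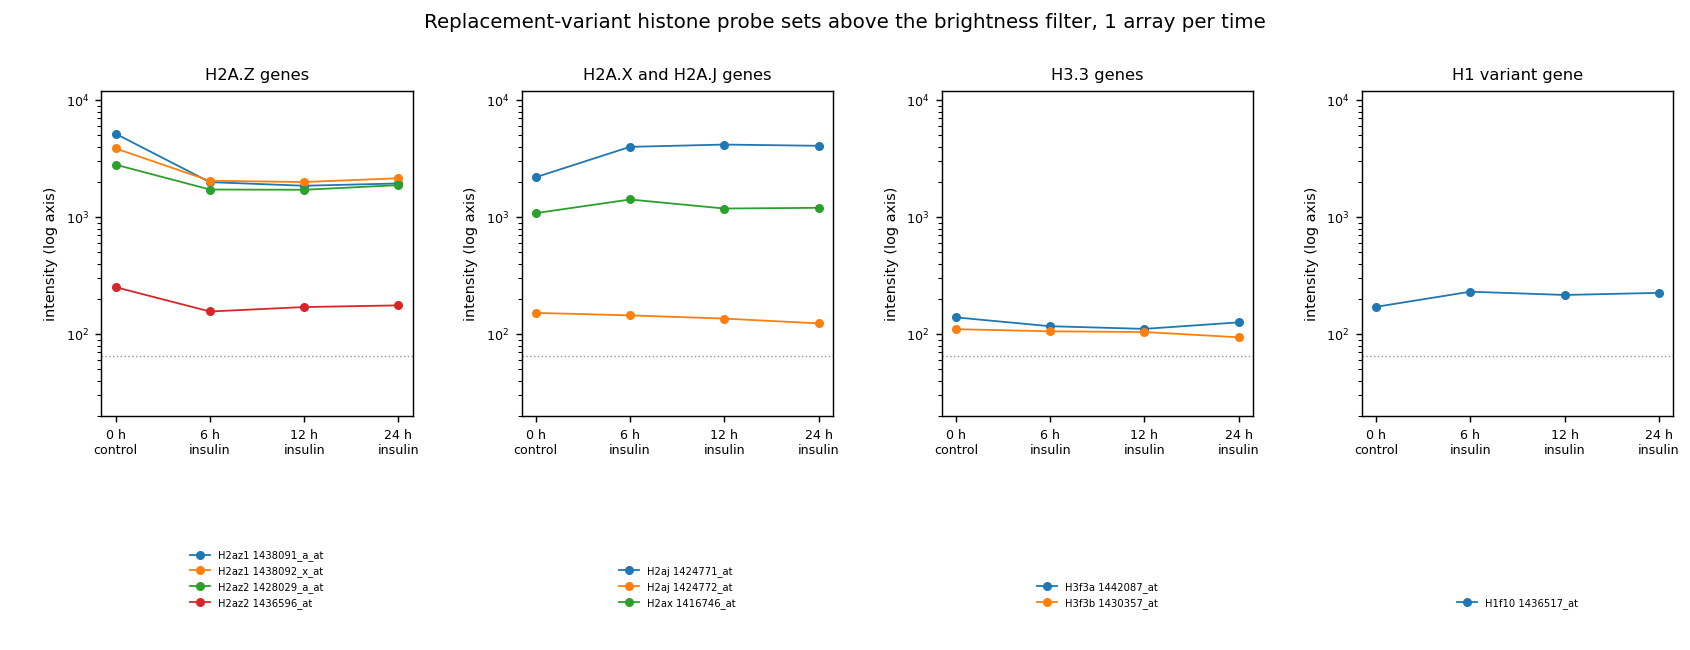
Intensity on a log axis of each replacement-variant probe set above the brightness filter on the 4 arrays, as equally spaced categories, with the filter value of 65.3 dotted. The 4 lines for H2az1 and H2az2 go down from 0 h, the bright H2aj line goes from 2197 to about its 12 h value of 4181, and the H3f3a and H3f3b lines stay between 94.2 and 139.

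The remaining variants are histones of germ cells and were dim. The 10 probe sets of H1f7, H1f8, H2al, H2ap, H2bl1 and H2bfm genes had mean intensities between 10.3 and 60.5, all under the filter. Histones with other names lie outside the rule. Cenpa, the H3 variant of centromeres, had 639, 338, 236 and 290.2, Macroh2a1, an H2A variant with a large extra domain, had 1066, 1340 and 1330 at 0, 6 and 12 h and 1405 at 24 h, and Macroh2a2 had 194, 245, 271 and 254. The spermatid linker gene Hils1 had 50.2, 47.2, 44.2 and 38.7.

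Between insulin arrays the histones differed little, as did nearly all probe sets. None of the 34 probe sets was 2-fold apart between 12 and 6 h, 24 and 6 h or 24 and 12 h, where 0.0481%, 0.337% and 0.00438% of all probe sets were. The cluster medians were 0.04 for 12 h minus 6 h, -0.01 for 24 h minus 6 h and -0.07 for 24 h minus 12 h, and the variant medians -0.06, -0.0015 and 0.05. For scale, the central 95% of all probe sets lay between -0.42 and 0.41, -0.39 and 0.45, and -0.29 and 0.34 in these comparisons. The 12 h array was the highest of the 3 insulin arrays for 16 of 24 cluster probe sets and the lowest for 4, against 34.1% and 28.7% of all probe sets. The probe set of 10 H2A genes was the member farthest apart, at -0.52 for 12 h minus 6 h and 0.56 for 24 h minus 12 h.

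The position of the cluster genes was set beside these values. Leaving histones out, probe sets of 1 gene on chromosome 13 had median differences of -0.09, -0.12 and -0.11 at the 3 times, those on chromosome 3 of -0.28, -0.27 and -0.27, and those on chromosome 11 of -0.03, -0.03 and -0.05. With the chromosome median removed from the 16 cluster and 10 variant probe sets whose genes lie on 1 chromosome, 5 cluster probe sets were 2-fold higher at each time, and the cluster median at 6 h was 0.71. No share of all probe sets was computed for this setting, so the count has no background beside it. Between the outermost histone genes of the chromosome 13 cluster, 6 probe sets of other genes were above the filter, those of Hfe, Abt1, Zfp322a and Prss16, named here after their values were seen. Their medians were 0.04, 0.10 and 0.11, and both Hfe probe sets were 2-fold higher, with 1.88, 2.50 and 2.64 on the log2 scale for one and 1.36, 1.57 and 1.46 for the other.

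Genes that make and process histone messages were mostly a little lower on the insulin arrays. Of 40 genes in this list 37 were above the filter by their brightest probe set, none was 2-fold higher, and 2, 4 and 1 were 2-fold lower at 6, 12 and 24 h. Among all 11770 genes taken the same way 10.7%, 11.9% and 11.3% were 2-fold higher and 4.81%, 5.5% and 5% lower. The list medians were -0.25, -0.26 and -0.22, against 0.01, 0.03 and -0.00082 for all genes. Slbp, the protein that binds the stem-loop of cluster messages, had 1448.5, 841, 718 and 762, and Npat, the coactivator of cluster transcription, had 416, 286, 288 and 305, each with all insulin arrays below 0 h. Farthest from 0 h were Cstf2, a subunit of the cleavage stimulation factor, with 1570.2, 711, 647 and 658, its relative Cstf2t with 2798, 1390.3, 1414 and 1499, and Eri1, an exonuclease of the stem-loop, with 356, 183, 176 and 179.5. The member of the U7 particle Lsm11 was the highest relative to 0 h, with 111, 206, 188 and 199.6.

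Of histone chaperones more were lower than higher, 27 against 8 of 36 by any amount at all 3 times. Among all genes 42.6% were lower and 44.7% higher in this way. Of 40 in the list, 36 were above the filter, none was 2-fold higher and 5, 9 and 6 were 2-fold lower. The shares of all genes were 10.7%, 11.9% and 11.3% higher and 4.81%, 5.5% and 5% lower. Chaperone medians were -0.41, -0.48 and -0.44. Chaf1b, a subunit of the complex that deposits new H3 and H4 behind the fork, had 370.4, 137, 100.3 and 106, and Asf1b, which hands H3 and H4 to it, had 725, 329, 264 and 287. Mcm2, a helicase subunit that also binds histones and stands in the S phase list too, had 1810.02, 571, 449 and 543, and Asf1a had 1713, 901, 901 and 885. Of the depositors of H3.3, Hira had 164, 122, 123 and 125, Daxx had 1119, 794, 749 and 685, and Atrx had 1662, 861 and 921 at 0, 6 and 12 h and 1088 at 24 h. The importin gene Ipo4 had 1849.98, 2756, 3279.9 and 2963 and was the highest relative to 0 h.

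Genes of S phase, when cluster histones are made in dividing cells, had the lowest median of the 5 lists. Of 45, 42 were above the filter, 17, 26 and 21 were 2-fold lower and none was 2-fold higher, with medians of -0.94, -1.26 and -1.001. Among all genes 4.81%, 5.5% and 5% were 2-fold lower and 10.7%, 11.9% and 11.3% higher. Cdt1, which loads the replicative helicase, had 2355, 604, 448 and 486, Mcm5 had 2041, 603, 401 and 458, and Mcm6 had 1664, 503, 329 and 376. Pcna, the sliding clamp of DNA polymerase, had 6569.9, 3635, 2817 and 2909.5, and the proliferation marker Mki67 had 897, 525, 365 and 601. On the mean of the 3 insulin arrays the S phase median was -1.0001, while the cluster histone median was 0.75. The lists were made up for this description and no test of the lists was run. They are not separate, since the S phase list shares Mcm2 with the chaperones and other members with the histone message genes.

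**Figure D4:**
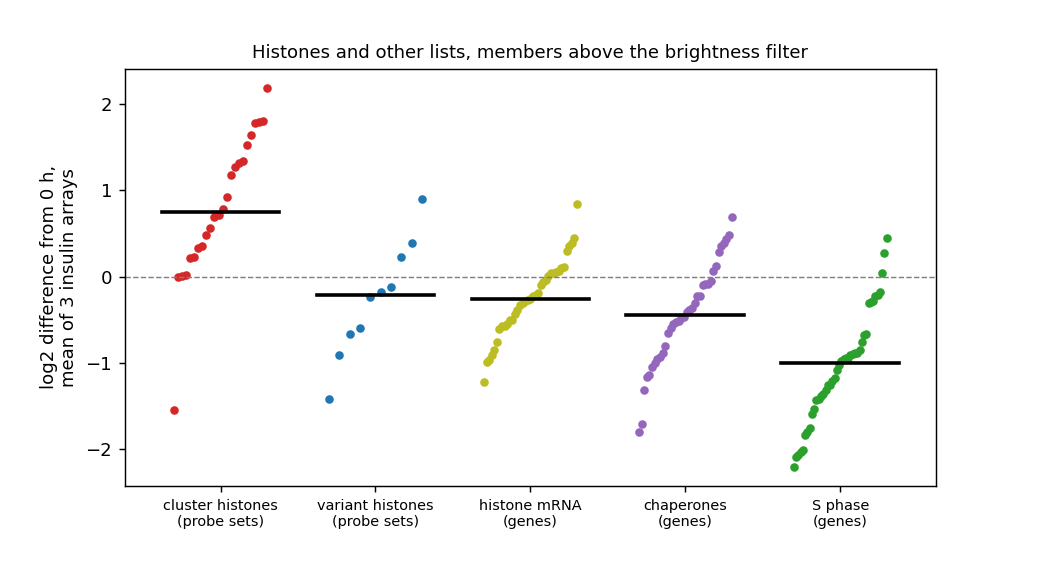
Log2 difference from the 0 h array, averaged over the 3 insulin arrays, for each cluster and variant histone probe set and each gene of 3 other lists above the brightness filter, with list medians as black bars. The medians are 0.75 for 24 cluster and -0.21 for 10 variant probe sets, and -0.26, -0.44 and -1.0001 for 37 histone message, 36 chaperone and 42 S phase genes.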

How the data were processed

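RNA from 4 cultures labelled as mouse osteoblasts was measured, 1 array each. The values are intensities deposited by the authors, linear and not yet logged, 1 for every probe set on every array. RMA is the method in the submitters' processing notes. It removes background, makes the arrays alike by quantiles and fits 1 value to the probes of a set. The software behind it is not given in the labels or file headers. RMA compresses differences of dim probe sets. The array medians lay between 64.97 and 65.75. Of 45101 probe sets 64 are controls. The platform annotation names 1 symbol for 34945 of the other 45037, several for 932 and none here for 9160.

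Log2 of the intensity was taken, the 0 h array subtracted, and probe sets at least 2-fold apart counted. Histones were split by symbol into cluster genes and variants. Any histone probe set above the filter could be named, and those below it if 2-fold from 0 h on the mean of the insulin arrays. From each other list up to 3 genes in each direction, at least 1.5-fold away, were named, with 11 genes named in any case, of which Chaf1a has no probe set of 1 symbol. The members and lists were chosen with earlier results of these data known. The counting was tested on simulated data. Promoters are from the RefSeq table of GRCm38.p6. Python 3.11.15, numpy 2.4.6, pandas 2.3.3, statsmodels 0.14.6 and matplotlib 3.10.9 were used.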

Additional observations from a re-analysis of the deposited data

How the results depend on the processing

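No paired analysis was possible because each group has 1 array. Of 393 recomputed values under 18 settings 297 stayed within the limits used here, which were 0.1 log2 for a median and 1.5 times for a count, and 96 moved. No median changed sign. Median centring and loess removal moved no value past these limits, although centring cannot change the distance between the 2 medians. Leaving out testis genes removed no probe set above the filter, with 24 cluster and 10 variant probe sets as before. Its values could therefore not move, and they are among the 297.

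At 1.5-fold, 14 cluster probe sets were higher at 6 h, and 1, 1 and 1 variant probe sets were higher and 4, 3 and 2 lower at 6, 12 and 24 h. At 3-fold, 5, 6 and 4 cluster probe sets were higher, 0 were lower at 6 and 24 h, and 0 variant probe sets were lower. Without a brightness filter 2, 3 and 3 cluster probe sets were 2-fold lower, the cluster medians were 0.60, 0.61 and 0.55, the variant medians -0.061, -0.082 and -0.12, and their distances 0.66, 0.70 and 0.68. With a filter 2 times higher the cluster medians were 0.96, 1.30 and 1.202, the variant medians -0.38, -0.36 and -0.41 and the distances 1.35, 1.67 and 1.61. After quantile normalization 2 variant probe sets were 2-fold lower at 12 h. With chromosome medians removed, 5, 5 and 5 of the 16 cluster probe sets left were higher, 1 variant probe set was higher at 12 and at 24 h, and the 6 h cluster median was 0.71. With the brightest probe set for each symbol entry, 5, 5 and 5 of 14 were higher, the cluster medians were 0.61, 0.66 and 0.55, the variant medians -0.061, -0.082 and -0.14 and the distances 0.68, 0.74 and 0.70. With probe sets of several symbols left out, 3, 4 and 4 cluster probe sets were higher and 0 lower, the cluster medians were 0.61, 0.62 and 0.54 and the distances 0.77, 0.86 and 0.81. With suffixed probe sets left out, 0 variant probe sets were lower, the variant medians were -0.061, -0.082 and -0.14, and the cluster medians were 0.91 at 12 h and 0.82 at 24 h. Without H2ax and H2aj the variant medians were -0.69, -0.57 and -0.52 and the distances 1.498, 1.36 and 1.22. That setting leaves out genes whose brightest probe sets were higher, so lower variant medians follow by construction. With means in place of medians the distance at 12 h was 1.14. With the 9 probe sets that name a histone beside a pseudogene or H4bc24 added, 2 variant probe sets were lower at each time and the distances were 1.12 at 6 h and 1.203 at 12 h. With all 10 added, H2aw with Trim17 included, 2 variant probe sets were lower at each time. With the 0 h array at or above the filter value too, the 12 h cluster median was 0.66 and the distance 0.90. With the filter on the highest array, 2 cluster probe sets were lower at each time and the 12 h distance was 0.87. These last 4 settings were chosen after seeing the data. Where fewer probe sets are left, the counts fall by construction, and the cause of the other shifts was not tested. Shares of all probe sets at 1.5-fold and 3-fold, and with the filter on the 0 h or the highest array, are given above. For the other settings no matching share is given, so their counts have no background beside them.

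Signal over background limits the dim members: 8 of 32 cluster and 11 of 21 variant probe sets were under the filter, and H3c4, H3c7 and 1 H4 probe set passed it through the insulin arrays alone.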
